A study of Homo sapiens with 7 samples.

Results

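The tight junction genes examined here were 9 in number: the claudins CLDN1, CLDN3, CLDN4, CLDN7 and CLDN12, occludin (OCLN), the scaffold genes TJP1 and TJP3, and F11R. The rule that picked their probes matched the accession of each probe to these gene names and used no measured value, although earlier results of these data were known when the genes were listed. Of the 42405 gene probes on the array, 11 belonged to 8 of the 9 genes. CLDN12, OCLN and F11R had 2 probes each, the other 5 matched genes had 1 probe, and TJP3 had no matched probe. Levels of TJP3 are therefore not given here.

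RNA came from NCI-H520, an established human line of squamous lung carcinoma cells, and was measured on 7 single-colour Agilent arrays, 1 for each group. All groups received 6 µg of a pLKO.1 plasmid with liposomes, were placed under puromycin at 6 µg/mL from 12 h onward and were collected at 72 h. The 2 control groups carried the empty vector or an shRNA without a known target (non-target), and the other 5 carried an shRNA against PARN, CNOT6, CNOT6L, CNOT7 or NOC (nocturnin, gene symbol NOCT), which are deadenylases, enzymes that shorten the poly(A) tail of mRNA. The labels give the same target accession for the CNOT6L and NOC plasmids, so the target of the CNOT6L plasmid is uncertain. Wild type cells were not analysed here. No condition had a replicate, so the small number of arrays limits how precise any value is.

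Tight junctions are the belts of contact that seal the space between neighbouring epithelial cells near their upper surface. Claudins are membrane proteins that form the strands of the belt, and the mix of claudins in a cell sets which ions and small solutes pass between cells. Occludin is another strand protein, F11R encodes the junctional adhesion molecule JAM-A, and TJP1 and TJP3 encode the scaffold proteins ZO-1 and ZO-3, which tie the strands to the actin cytoskeleton. Claudin levels are often altered in epithelial tumours.

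CLDN4 and CLDN1 were the members whose level differed most between arrays, and CLDN3 lies next to CLDN4 on chromosome 7, with 0 annotated genes between them in the RefSeq gene table. The 250 bases before the start of these 3 genes are therefore shown, taken from RefSeq on build GRCh38.p14 and written 5′ to 3′ on the strand of the gene. Capitals mark each GC box, the letters GGGCGG or CCGCCC, a motif known to be bound by Sp1-type factors. CLDN4 was read from chr7:73830746-73830995 on the plus strand, CLDN3 from chr7:73770271-73770520 on the minus strand, and CLDN1 from chr3:190322447-190322696 on the minus strand.
CLDN4: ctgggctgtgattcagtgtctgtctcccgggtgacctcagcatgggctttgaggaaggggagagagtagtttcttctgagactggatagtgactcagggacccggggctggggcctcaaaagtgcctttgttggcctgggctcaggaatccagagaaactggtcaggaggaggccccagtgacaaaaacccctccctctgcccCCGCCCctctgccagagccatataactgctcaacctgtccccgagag
CLDN3: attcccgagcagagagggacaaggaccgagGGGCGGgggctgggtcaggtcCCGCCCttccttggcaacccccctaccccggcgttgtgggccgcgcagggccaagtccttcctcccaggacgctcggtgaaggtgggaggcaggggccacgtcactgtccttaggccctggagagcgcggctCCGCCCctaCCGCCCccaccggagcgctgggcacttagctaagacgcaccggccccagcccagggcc
CLDN1: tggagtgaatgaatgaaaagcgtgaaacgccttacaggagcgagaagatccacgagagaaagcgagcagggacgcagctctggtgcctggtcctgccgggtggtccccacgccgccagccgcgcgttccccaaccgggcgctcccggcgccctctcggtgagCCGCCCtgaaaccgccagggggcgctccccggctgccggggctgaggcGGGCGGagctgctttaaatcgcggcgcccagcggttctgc
CLDN4 held 1 GC box, CLDN3 held 4 and CLDN1 held 2. The G and C content was 58.8% before CLDN4, 71.6% before CLDN3 and 68.8% before CLDN1, beside a median of 58% over all 35116 windows of this length. GC boxes were present in 42.6% of all windows and in 10 of the 14 windows listed for the members. The E-box letters CACCTG or CAGGTG, bound by repressors of the Snail and ZEB families, were present in 17.5% of all windows and in 5 of the 14 member windows, but not in those of CLDN4, CLDN3 or CLDN1. TATAAA, also read on both strands, was present in 3763 of the 35116 windows and in 0 of the 14. The windows covered 8 of the 9 genes, TJP3 among them but not F11R, so these are not the same 8 genes as those with probes. A match describes the letters and not a bound site.

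Each level is the processed signal of a probe on the log2 scale after subtraction of the 75th percentile of its array, so that 0 stands for that percentile. Probes differ in how strongly they bind, so a level is set against the same probe on other arrays and never against another probe. The arrays differed in brightness, the 75th percentile lying between 1360 on the CNOT6 shRNA array and 3939 on the CNOT7 shRNA array. All arrays were on 1 slide, and the image of the NOC array was processed on another day than the other images. Row 1 of the slide held both control arrays with the PARN and CNOT6 arrays, and row 2 held those of CNOT6L, CNOT7 and NOC. Each targeted gene, read by 1 probe, was lowest on its own array, at 45.7% of the control mean for PARN, 54.5% for CNOT7, 63.0% for CNOT6L, 74.8% for NOCT and 89.5% for CNOT6. For NOCT the difference was -0.62 log2 from the empty-vector array but -0.21 from the non-target array. For CNOT6 these differences were -0.21 and -0.11, so its silencing is not shown clearly here. The markers of simple epithelium KRT8, KRT18, KRT19, EPCAM and CDH1 were above background on all arrays. Of 8 squamous markers, 4 were above background on all arrays (SOX2, KRT6A, DSC3 and PKP1), KRT5 was on 4 arrays, TP63 on 2, KRT14 on 1 and DSG3 on 0, so basal squamous markers were largely missing from a line labelled squamous. All 6 mesenchymal markers, VIM, CDH2 and ZEB1 among them, were also above background on all arrays. Some markers counted as above background were weak. The processed signal was 18.3 to 53.1 for COL1A2, 17.2 to 74.0 for DSC3 and 32.2 to 68.9 for PKP1.

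All 11 member probes were well above background on all 7 arrays, and 0 were saturated. Most of them stayed within a narrow range. The distance between the highest and lowest array had a median of 0.46 log2 over the 11 probes, beside 0.71 over the 33742 probes above background on all arrays. These sets were not matched for brightness, and its part in the gap was not tested. A range of at least 1 log2 was found for 2 member probes, those of CLDN4 and CLDN1, while 27.0% of the 33742 probes had such a range. In bulk RNA, a change in every cell and a change in the share of cells that express a gene cannot be told apart.

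**Figure D1:**
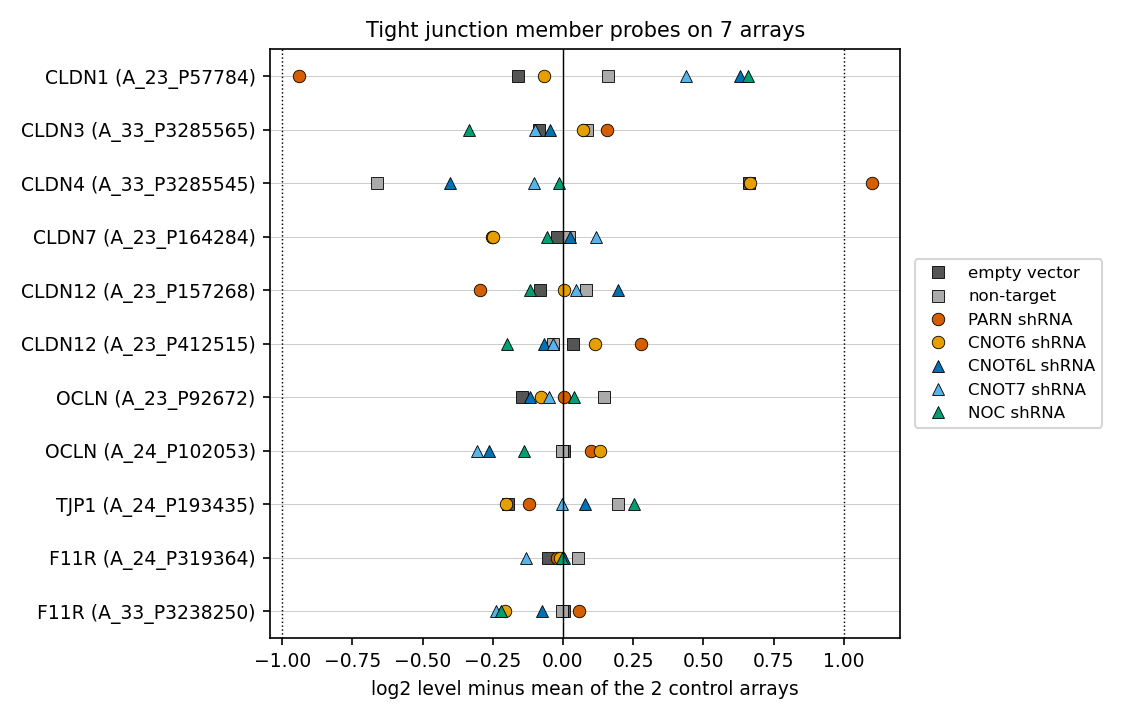
Level of each of the 11 member probes on 7 arrays, plotted as log2 level minus the mean of the 2 control arrays. Squares are controls, circles are shRNA arrays of slide row 1 and triangles those of row 2, and dotted lines mark a 2-fold difference. CLDN1 and CLDN4 spread over 1.60 and 1.76 log2, and all other probes lie close to 0.

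The widest range was that of CLDN4, which together with CLDN3 encodes a receptor for a bacterial enterotoxin and is abundant in many carcinomas. Its level was -0.62 with the empty vector, -1.95 with the non-target shRNA, -0.19 with PARN shRNA, -0.62 with CNOT6 shRNA, -1.69 with CNOT6L shRNA, -1.39 with CNOT7 shRNA and -1.30 with NOC shRNA. The PARN array was the highest and the non-target array the lowest of the 7, and all row 2 arrays lay between the controls. The 2 spots of the probe differed little, with an SD between 0.005 and 0.074 log2 on each array. Of the 6 pairs of neighbours in the order of the arrays, the spots overlapped for 1, the CNOT6 and empty-vector arrays. Spots of 1 array share the RNA, so this spread leaves out the variation between cultures.

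Against the mean of the controls, CLDN4 was 2.14-fold higher with PARN shRNA, a difference of 1.10 log2. That difference was 1.76 against the non-target array but 0.44 against the empty-vector array. With CNOT6 shRNA the same differences were 1.33 and 0.00. With CNOT6L shRNA they were 0.26 and -1.06. CNOT7 and NOC shRNA gave -0.76 and -0.68 against the empty-vector array and 0.56 and 0.65 against the non-target array. The sign for these row 2 arrays thus turned with the control used.

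CLDN1, a claudin needed for the barrier of the skin, was the dimmest member probe, with a processed signal between 22.9 and 111 on the 7 arrays. Its level was -5.82 with the empty vector, -5.50 with the non-target shRNA, -6.60 with PARN shRNA, -5.72 with CNOT6 shRNA, -5.02 with CNOT6L shRNA, -5.22 with CNOT7 shRNA and -5.00 with NOC shRNA. The PARN array was the lowest and the row 2 arrays were above both controls. Against the mean of the controls the difference was -0.94 with PARN shRNA and -0.07 with CNOT6 shRNA, and it was 0.63, 0.44 and 0.66 with CNOT6L, CNOT7 and NOC shRNA. The SD of its 2 spots reached 0.39 log2 on the PARN array. When the median signal with normexp, a model that separates signal from local background, took the place of the processed signal, the differences were -0.15 with PARN shRNA, 0.48 with CNOT6, 0.21 with CNOT6L, -0.05 with CNOT7 and 0.23 with NOC shRNA. This setting also added an offset of 50 before the log2 step, which is large beside the CLDN1 signal. Both the size and, for CNOT6 and CNOT7 shRNA, the sign of the CLDN1 difference thus changed with the processing. The signal, the background correction and the offset were changed together, and their separate parts were not tested.

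**Figure D2:**
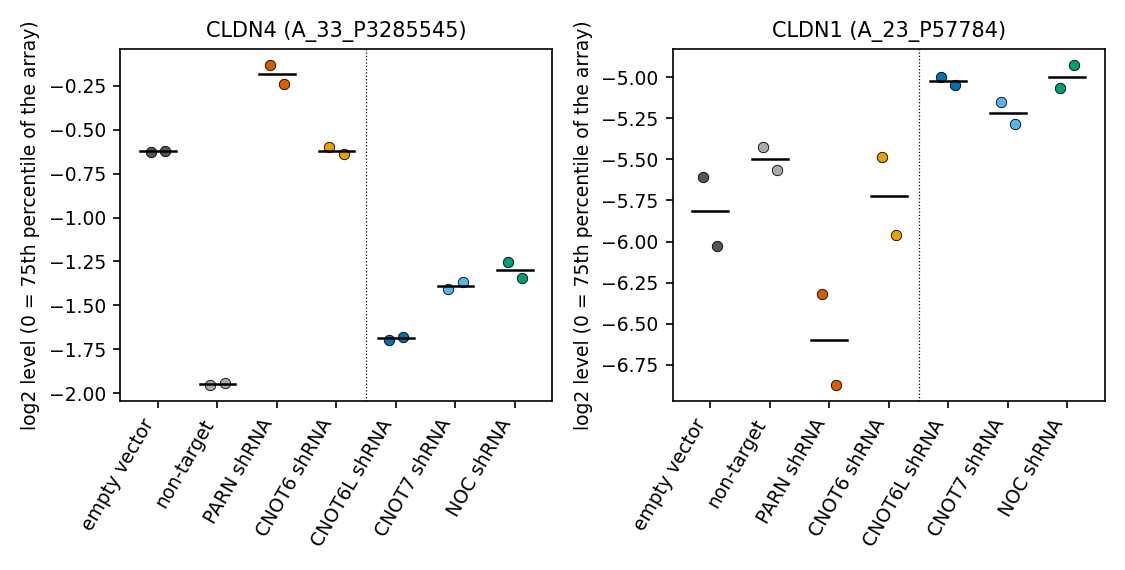
Level of the CLDN4 and CLDN1 probes in each of their 2 spots (points) with the mean (bars) on the 7 arrays, as log2 with 0 at the 75th percentile of the array. The dotted line parts slide row 1 from row 2. CLDN4 is highest on the PARN array and lowest on the non-target array, and CLDN1 is lowest on the PARN array at -6.60.

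CLDN3, the neighbour of CLDN4, was 1.24 with the empty vector, 1.42 with the non-target shRNA, 1.49 with PARN shRNA, 1.40 with CNOT6 shRNA, 1.28 with CNOT6L shRNA, 1.23 with CNOT7 shRNA and 0.99 with NOC shRNA. The NOC array stood lowest, with a difference of -0.34 from the control mean, and its spots did not overlap those of the next array. The part of the separate image processing of the NOC array in its CLDN3 and TJP1 levels was not tested. Spots overlapped for the other 5 pairs of neighbours. CLDN7, a claudin that also binds EPCAM along the sides of epithelial cells, was 0.998 and 1.04 on the empty-vector and non-target arrays, 0.77 with both PARN and CNOT6 shRNA, 1.04 with CNOT6L shRNA, 1.14 with CNOT7 shRNA and 0.96 with NOC shRNA. The PARN and CNOT6 arrays were thus below both controls for CLDN7, by differences of -0.25 each from their mean.

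CLDN12, an atypical claudin, had a brighter probe (A_23_P157268) between -0.61 with PARN shRNA and -0.12 with CNOT6L shRNA, with controls of -0.40 and -0.23. Its other probe (A_23_P412515) ran from -4.01 with NOC shRNA to -3.53 with PARN shRNA, with controls of -3.77 and -3.84. The PARN array was lowest by the brighter probe and highest by the other, and the correlation between the 2 probes over 7 arrays was -0.54. Each was printed on 1 spot, so neither has a spot error.

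OCLN was -2.76 with the empty vector and -2.47 with the non-target shRNA by its brighter probe (A_23_P92672), and all 5 shRNA arrays lay between these values, from -2.74 with CNOT6L shRNA to -2.58 with NOC shRNA. Its other probe (A_24_P102053) ran from -3.44 with CNOT7 shRNA to -3.00 with CNOT6 shRNA, with controls of -3.12 and -3.13. The 2 OCLN probes had a correlation of 0.15 over the 7 arrays.

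The brighter F11R probe (A_24_P319364) had the smallest range of all member probes, 0.18 log2. It was 3.48 with the empty vector, 3.59 with the non-target shRNA, 3.52 with PARN shRNA, 3.53 with CNOT6 shRNA, 3.54 with CNOT6L shRNA, 3.41 with CNOT7 shRNA and 3.53 with NOC shRNA. Spots overlapped for all 6 pairs of neighbours, so no order of the arrays could be read from it. The other F11R probe (A_33_P3238250) ran from 1.02 with CNOT7 shRNA to 1.31 with PARN shRNA, with controls of 1.26 and 1.25. Its range was 0.30 log2, and its spots overlapped for 3 of the 6 pairs of neighbours. TJP1 was 0.77 with the empty vector, 1.16 with the non-target shRNA, 0.84 with PARN shRNA, 0.76 with CNOT6 shRNA, 1.04 with CNOT6L shRNA, 0.96 with CNOT7 shRNA and 1.22 with NOC shRNA. The NOC and non-target arrays were highest for TJP1, and the CNOT6 and empty-vector arrays, whose spots overlapped, were lowest.

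The question of whether silencing a deadenylase changed these genes was first put by a rule of size. A probe was called when it was 2-fold or more above, or 2-fold or more below, each of the control arrays. By this rule 0 of the 11 member probes were called with any of the 5 shRNAs. Over all probes compared, 0.803% were called with PARN shRNA, 0.7% with CNOT6 shRNA, 1.1% with CNOT6L shRNA, 1.46% with CNOT7 shRNA and 1.91% with NOC shRNA, so a count of 0 of 11 is near the background. The median difference of the member probes from the control mean lay between -0.06 with NOC shRNA and 0.00 with PARN shRNA. The medians of all 33742 probes lay between -0.07 with CNOT7 shRNA and 0.11 with CNOT6 shRNA. Outside CLDN4 and CLDN1, each member probe was within 0.34 log2 of the control mean on every shRNA array.

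**Figure D3:**
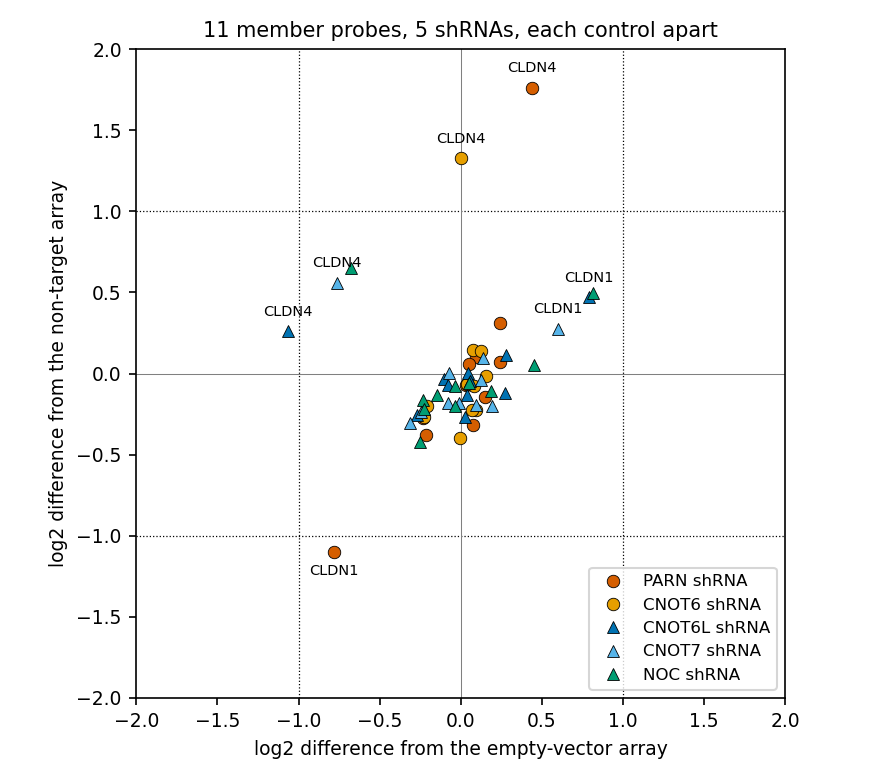
Difference of each member probe on each shRNA array from the empty-vector array (x axis, log2) and from the non-target array (y axis, log2). Dotted lines mark 2-fold, a called probe would lie in the upper right or lower left corner beyond both lines, and 0 of the 11 probes do. Points of CLDN4 and CLDN1 that lie apart are named.

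The controls themselves differed for CLDN4, which was 1.32 log2 higher with the empty vector than with the non-target shRNA. It was the 1 member probe of 11 past 2-fold between the controls, where the empty-vector array was past 2-fold higher for 17.3% of all probes and lower for 0.723%. Only 4 of the 11 member probes were higher on the empty-vector array, beside 61.7% of the 33742 probes, and the median difference was -0.10 log2 for the members and 0.12 for all. After CLDN4, the largest differences were those of TJP1 at -0.39, CLDN1 at -0.32 and the brighter OCLN probe at -0.29. Against a single control, CLDN4 passed 2-fold with PARN and CNOT6 shRNA from the non-target array, where 6.56% and 12.6% of all probes were higher, and from the empty-vector array with CNOT6L shRNA, where 9.98% were lower. CLDN1 passed 2-fold with PARN shRNA from the non-target array, at -1.10, where 1.62% of all probes were lower.

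All 5 leukocyte and endothelial markers, like CLDN4, were higher on the empty-vector than on the non-target array. The same held for 61.7% of the 33742 probes above background on all arrays. Of the 7 arrays, the empty-vector array had the most probes above background, 91.4%, and the non-target array the fewest, 82.0%. The processed signals of the 5 markers were weak, between 30.2 for CD3E and 675 for CD68, beside 75th percentiles of 1360 to 3939. The summed scaled signal of the 5 markers was lowest on the non-target array, at 0.216, and highest on the empty-vector array, at 0.515, with the shRNA arrays between 0.286 and 0.469, and all 5 were above background on all arrays. PECAM1 was at -3.21 with the empty vector, -5.89 with the non-target shRNA and -3.23 with PARN shRNA, and CD68 at -2.26, -4.03 and -2.14. On the PARN array the markers did not all follow CLDN4, since CD3E was at -4.72, -5.88 and -6.17 in the same order, PTPRC at -3.06, -3.52 and -3.55, and VWF at -4.64, -4.89 and -4.79. The part of these signals in the CLDN4 difference was not tested.

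Both controls were in row 1, so the row 2 arrays were also compared among themselves. Among the 3 arrays of row 2, 0 of 11 member probes differed 2-fold from both row mates, beside 1.28% of all probes on the CNOT6L array, 0.351% on the CNOT7 array and 0.495% on the NOC array. CLDN1, higher than both controls on each of these arrays, differed from the mean of its row mates by 0.08 with CNOT6L shRNA, -0.21 with CNOT7 shRNA and 0.12 with NOC shRNA. For CLDN4 these differences were -0.34, 0.11 and 0.24. For the row 2 arrays, silencing and slide row cannot be told apart against the controls.

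The 5 shRNA arrays were then compared with the 2 control arrays by limma, whose error here is the spread between different shRNAs and between the control plasmids. The test called 0 of 38004 probes, 0% at an adjusted p of 0.05, and so 0 of the 11 member probes. At an unadjusted p under 0.05 it held 1425 probes, 3.75% of those tested, and 0 member probes. With the empty-vector array left out it called 48 probes higher and 14 lower, and with the non-target array left out 1 lower, none of them a member probe. The difference for CLDN4 was 0.25 ± 0.44 log2 (SE, 5 against 2 arrays) and that for CLDN1 was 0.14 ± 0.44, both smaller than their errors. The other 9 member probes had differences between -0.14 and 0.02, with SEs of 0.10 to 0.20. With slide row as a term the CLDN4 difference was 0.88 ± 0.38, with an unadjusted p of 0.045 and an adjusted p of 0.925 by limma. Both controls were in row 1, so the size of this difference rests on the PARN and CNOT6 arrays alone. In that setting 1 of the 11 member probes was under 0.05 before adjustment, beside 1386 of all 38004 probes. Fitted without slide row, the CLDN4 difference was 0.91 with the empty-vector array left out and -0.41 with the non-target array left out. The sign of the CLDN4 difference over all shRNAs thus rested on which control was used.

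**Figure D4:**
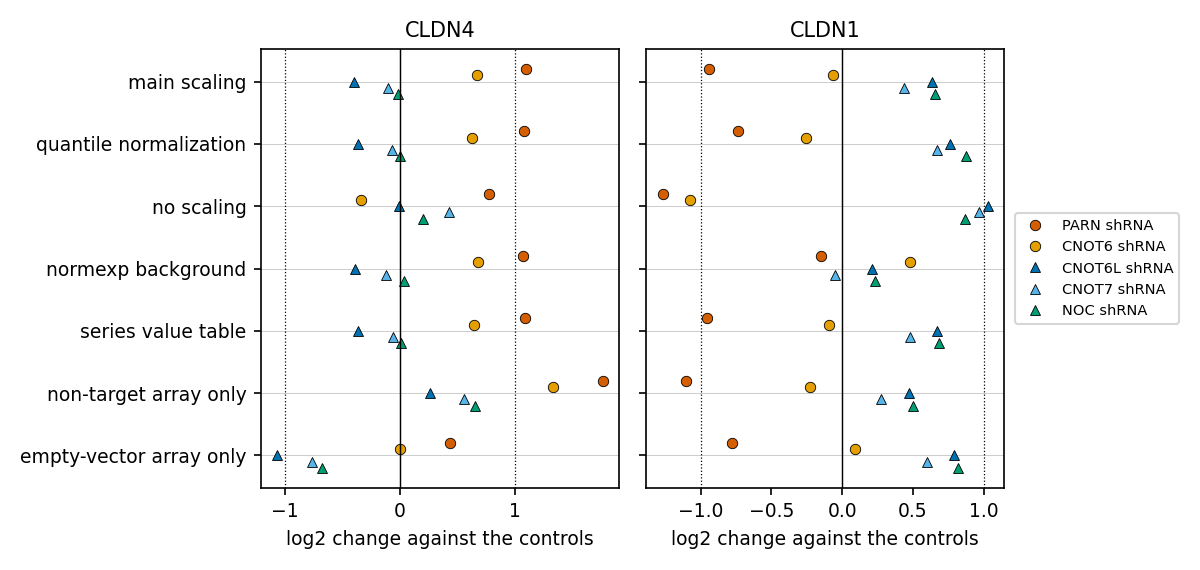
Difference of CLDN4 (left) and CLDN1 (right) from the control mean with each shRNA, in log2, under the main scaling, other ways of processing and either control alone. Dotted lines mark 2-fold. CLDN4 with PARN shRNA stays above 0 in every setting shown, from 0.44 to 1.76, while CLDN4 on the row 2 arrays changes sign with the control.

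Over the 7 arrays the members did not share 1 pattern. Represented by the brighter probe where there were 2, the highest correlations were 0.73 between CLDN1 and CLDN12 and 0.70 between CLDN1 and CLDN7, and the lowest were -0.80 between CLDN1 and CLDN4 and -0.79 between CLDN4 and TJP1. The choice of probe mattered here. With the dimmer CLDN12 probe, the correlation with CLDN1 was -0.94, that with CLDN3 was 0.83 and that with CLDN4 was 0.76, so both ends of this ranking changed. These are descriptions over 7 arrays of 1 slide that share a scaling and 2 slide rows. Among 6444 probes of other genes that varied by an SD of at least 0.3 log2, the pattern most like that of CLDN4 was TIMD4 (r = 0.99), and 458 probes, 7.11% of those searched, exceeded 0.9. For CLDN1 it was GLO1 (r = 0.997), with 203 probes or 3.15% above 0.9. The most alike were RTN4R for TJP1 (r = 0.99) and FAM217B for CLDN7 (0.98). No match is given for CLDN3, OCLN and F11R, whose spots overlapped for most neighbouring arrays, or for CLDN12, whose probes had single spots and disagreed.

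Of 55 other tight junction genes, 51 had 67 matched probes, 60 of them above background on all arrays. AMOTL1, an angiomotin family member that links junctions to Hippo signalling, was the 1 gene called. Its probe A_33_P3271196, on 1 spot, was at -1.42 with the empty vector, -1.60 with the non-target shRNA, -1.28 with PARN shRNA, -0.56 with CNOT6 shRNA, -0.29 with CNOT6L shRNA, -0.82 with CNOT7 shRNA and -0.32 with NOC shRNA. It was higher by 1.13 and 1.31 log2 than the controls with CNOT6L shRNA, and by 1.10 and 1.28 with NOC shRNA. Against the row 2 mates the differences were 0.28 and 0.24. The other AMOTL1 probe was not called and did not follow the first. From the control mean it differed by -0.24 with CNOT6L shRNA and 0.14 with NOC shRNA, beside 1.22 and 1.19 for the called probe. The called probe is 1 of 67 with each of these shRNAs, beside 1.1% and 1.91% of all probes. On this list 0 probes were called lower with any shRNA.

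Of these genes, 45 were compared with CLDN4 over the 7 arrays, and those named next were picked after their values were seen. A correlation above 0.9 was found for 3 of the 45, beside 7.11% of the probes searched above. Those probes had an SD of at least 0.3 log2, a limit not set for the 45, so the shares are of unlike sets. The 3 genes were tricellulin (MARVELD2), the strand protein of corners where cells meet, at 0.97, SYMPK at 0.97 and CLDN6 at 0.92. The lowest were JAM3 at -0.87 and PRKCI at -0.86. CLDN6 was at -2.81 with the empty vector, -4.23 with the non-target shRNA, -2.90 with PARN shRNA, -2.93 with CNOT6 shRNA, -3.54 with CNOT6L shRNA, -3.56 with CNOT7 shRNA and -3.68 with NOC shRNA. As for CLDN4, the non-target array was the lowest and the row 2 arrays lay between the controls, but the order within row 2 was the reverse of that of CLDN4 and the empty-vector array was the highest.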

How the data were processed

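Per the file headers, the authors extracted the array images with Agilent Feature Extraction 10.7.3.1, and the deposited scanner files give the intensity of 62976 spots per array. The deposited series table holds log2 values, whose column medians here lay between -0.02 and 0.09, and member differences from it lay within 0.04 log2 of those from the scanner files. Its centring stays unknown, and it served as an alternative. Control spots and outlier-flagged spots were left out and spots of a probe were averaged. Probes were named by accession through a RefSeq gene table of GRCh38.p14, used for names and neighbouring genes, which named 24826 probes. A probe was above background when at least 50% of its spots were. Where a side was not above background, the lowest level above background on that array took its place if it was the larger. Between 82.0% and 91.4% of probes were above background, and the median spot SD was 0.048 to 0.073 log2.

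limma 3.58.1 in R 4.3.3 (lmFit, eBayes with trend, two-sided, Benjamini-Hochberg) used probes above background on at least 2 arrays. Other tables were made with Python 3.11.15. Normexp (offset 50) was run on the median signal in place of the mean signal planned. Alternatives were normexp, quantile normalization, no scaling, a 4-fold threshold, the series table, other filters, slide row and leaving out an array. Named genes were all members, called genes of a wider tight junction list, the gene most like each member and the targeted genes, beside the cell type markers. Matches of 4 members were left out after their values were seen, and MARVELD2, SYMPK, CLDN6, JAM3 and PRKCI were chosen after theirs were. The members and lists were chosen with earlier results of these data known.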

Additional observations from a re-analysis of the deposited data

How the results depend on the processing

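The count of called member probes stayed at 0 for CNOT7 and NOC shRNA, within slide row 2 and in the limma comparison under every alternative run. Without scaling, 1 probe was called with PARN shRNA (CLDN1, lower) and 2 with CNOT6 shRNA (CLDN7 and TJP1, lower). Unscaled differences hold the brightness of each array, and the CNOT6 array was the dimmest. CLDN3 with CNOT6 shRNA moved likewise, from 0.07 to -0.93. The share of all probes called in this setting is not given here, so these calls are not read as changes of the members. Without the empty-vector or the non-target array in turn, the counts ranged from 0 to 2 with PARN shRNA (without the empty vector CLDN4 was higher and CLDN1 lower), from 0 to 1 with CNOT6 shRNA (without the empty vector CLDN4 was higher) and from 0 to 1 with CNOT6L shRNA (without the non-target array CLDN4 was lower). Between the controls, the count of 1 became 0 at 4-fold and 2 under quantile normalization, with CLDN4 higher and CLDN1 lower. Shares over all probes are not given for these settings either, so these counts are not read as results about the members. Of 40 single differences, no scaling moved 34 and normexp moved 5 by more than the SD between the control arrays, and either control alone changed the sign of 10. The moves without scaling and with either control alone follow from how the differences are computed. The normexp moves were all those of CLDN1, which had a processed signal of 22.9 to 111 beside the added offset of 50. How much of these moves came from the offset was not tested. Restricted to slide row 1, an alternative chosen after seeing the data, the limma difference of CLDN4 was 0.88 ± 0.40. Its size equals that with slide row as a term by construction, so it adds no separate support. No paired analysis was possible because each group has 1 array. With normexp, CLDN1 with PARN shRNA moved by 0.79 log2.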
